A study of Homo sapiens with 4 samples.

Results

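Chromosome 16 was described by its lamin B1 enrichment in 2 human prostate cancer cell lines, LNCaP and VCaP. Its members were all 40 kb bins of the chromosome with a deposited value in both lines, 1976 of the 71436 such bins of all chromosomes, and they cover 79.04 Mb. The labels give LNCaP as prostate adenocarcinoma and VCaP as bone metastatic prostate cancer, and both are established lines. Both were kept in continuous culture, no agent is named before formaldehyde fixation, and each gave 1 lamin B1 chromatin immunoprecipitation (ChIP) library and 1 input library. The values are log2 ratios of ChIP over input of the same line, so 0 means equal ChIP and input signal on the authors' scale. The chromosome was chosen by the lamin B1 values themselves, which were already known to be high in both lines, so its level and its associated share are given as a description and support nothing.

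Beneath the inner nuclear membrane lies the nuclear lamina, a filament mesh of which lamin B1 is a building block. Chromatin in contact with it forms lamina-associated domains, which in most cell types are large, poor in genes and rich in A and T, and are mostly silent. Chromosome 16 is known as a gene-rich chromosome with many segmental duplications on its short arm, a large block of heterochromatin beside its centromere on the long arm, and frequent loss of parts of its long arm in prostate cancer.

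With 1 library pair per line, no difference between the lines has a replicate check, and no test or p-value is given. The error given for bins is the noise, an SD estimated from the change between bins 3 apart on chromosome 16. It was 0.15 log2 units in LNCaP, 0.24 in VCaP and 0.20 for their difference, against 0.15, 0.23 and 0.20 over all chromosomes. The noise SD of a mean is this noise scaled down for the number of bins. It covers only the spread between bins of 1 library pair, and not that between libraries or of the zero point. The depth is unknown, since the values are ratios and no read numbers were analysed here. Positions are in hg19 and are counted from 1.

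Nearly the whole chromosome carried the associated label of the deposited hidden Markov model, which assigns each bin to 1 of 2 states. In LNCaP 1812 of the 1976 bins were associated, 91.7%, where 37.9% of all bins of the genome were. In VCaP 1695 bins were associated, 85.8%, where 44.4% of all bins were. Both lines were associated in 1628 bins, 82.4%, against 20.6% of all bins. Chromosome 16 held 2.77% of the bins of the genome and 11.0% of those associated in both lines.

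Among 24 chromosomes, chromosome 16 was in the 1st place in LNCaP by associated share and by median enrichment. Chromosome 1 came next by share, with 53.8%. In VCaP it was in the 3rd place by both measures, after chromosome 19 with 95.5% and chromosome 22 with 90.3%. Those chromosomes had shares of only 34.3% and 19.8% in LNCaP. The share in both lines was 33.3% on chromosome 19 and 19.1% on chromosome 22. These places order single values and were not tested.

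**Figure D1:**
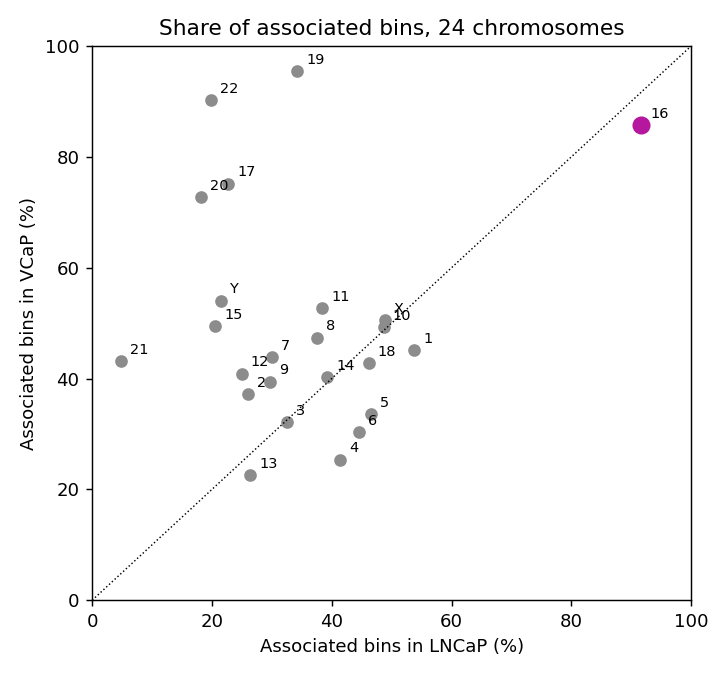
Share of 40 kb bins in the associated state in LNCaP (x axis, %) and VCaP (y axis, %), 1 point per chromosome, with equal shares on the dotted line. Chromosome 16 lies alone at the upper right, at 91.7% and 85.8%, while chromosomes 19 and 22 are high in VCaP only.

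The level was high as well as the label. In LNCaP the median log2 enrichment of the chromosome was 0.45 (quartiles 0.26 and 0.68), and the median over all chromosomes was 0.06 (-0.16 and 0.32). In VCaP the medians were 0.58 (0.32 and 0.82) and 0.19 (-0.10 and 0.50). Enrichment was over 0 in 95.0% of the bins in LNCaP and in 92.0% in VCaP. The label and the value were not interchangeable. Of bins with a log2 enrichment between 0 and 0.1, 56.7% of 97 LNCaP bins carried the associated label on chromosome 16, and 8.59% of 8215 did on the other chromosomes. In VCaP these shares were 22.4% of 58 and 6.73% of 6163. For bins between 0.2 and 0.3 they were 94.9% and 77.0% in LNCaP, and 83.5% and 46.2% in VCaP. Thus a weakly enriched bin was more often labelled associated on chromosome 16 than elsewhere, so shares by label are not shares by enrichment alone. The cause was not tested. When the top 40% of all bins of a line by enrichment were taken as associated instead, the chromosome had shares of 86.1% in LNCaP and 76.9% in VCaP and kept its places in both lines.

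The arms were split at the longest stretch without a member bin, from 35320001 to 46360000, which is 11.0 Mb long. The short arm had 878 bins and the long arm 1098. In LNCaP both arms were alike, with medians of 0.44 (quartiles 0.25 and 0.70) on the short arm and 0.46 (0.26 and 0.68) on the long arm, and associated shares of 90.4% and 92.7%. In VCaP the short arm was higher, with a median of 0.70 (0.45 and 0.92) against 0.48 (0.27 and 0.72), and a share of 90.5% against 82.0%.

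On the deposited scale the lines differed more on the short arm. The median VCaP minus LNCaP difference was 0.21 on the short arm and 0.01 on the long arm. The zero point of the lines bears on this, since the genome median of VCaP lay 0.13 above that of LNCaP. Relative to that shift the differences were 0.08 and -0.13, and once both lines were given one distribution by quantile normalization they were 0.01 and -0.18. On every one of these scales the short arm lay further towards VCaP than the long arm, while the line with the higher long-arm median changed with the scale. VCaP exceeded LNCaP by more than 0.5 in 157 short-arm bins (17.9%) and in 57 long-arm bins (5.19%), where 21.3% of all bins did. LNCaP exceeded VCaP by more than 0.5 in 32 bins (3.64%) and 57 bins (5.19%), where 9.33% of all bins did. The 0.5 limit is over 2 times the noise of a difference. The split of 157 to 32 on the short arm became 82 to 59 with both lines centred, and 64 to 74 after quantile normalization. That of 57 to 57 on the long arm became 16 to 105 and 8 to 145. On the deposited scale both directions were rarer on chromosome 16, at 10.8% and 4.50%, than over the genome.

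Across bins, the enrichment of the lines was more closely correlated on the long arm. Pearson r was 0.61 (Spearman rho 0.58) over the 1098 bins of the long arm and 0.32 (rho 0.38) over the 878 bins of the short arm, against 0.28 (rho 0.30) over all chromosomes. In windows of 1 Mb, r was 0.71 over 43 windows of the long arm and 0.38 over 35 windows of the short arm. These describe how bins of 2 profiles vary together. Neighbouring bins share averaged signal, and all bins of a line share 1 ChIP library and 1 input library.

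**Figure D2:**
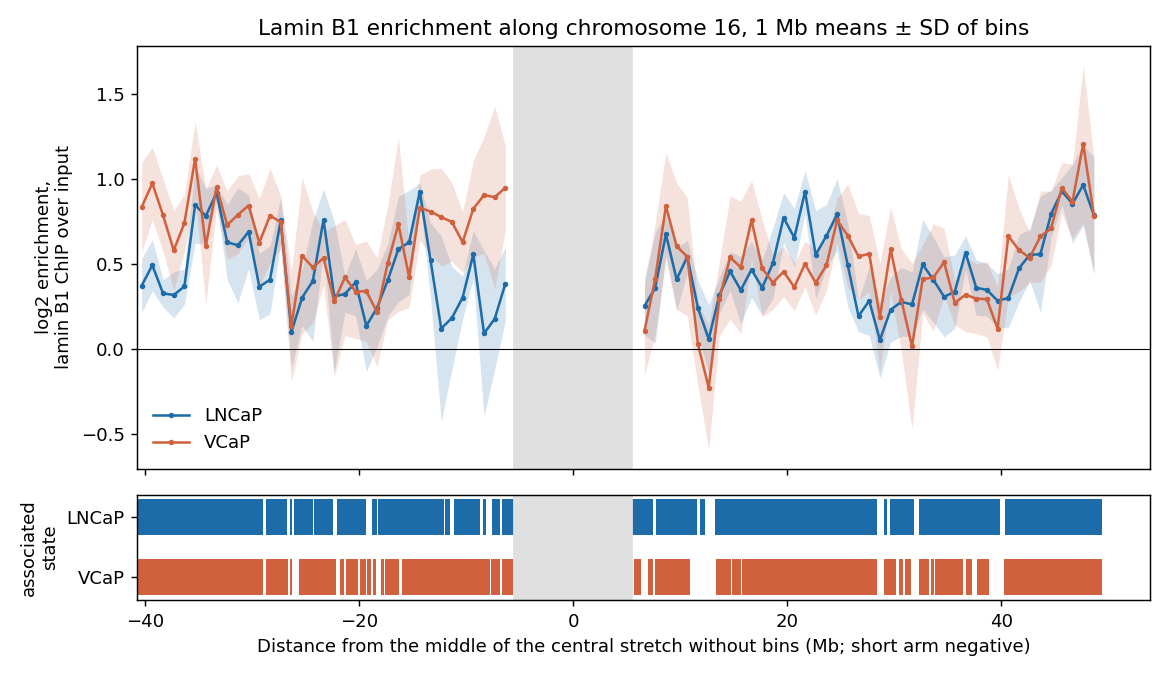
Mean log2 enrichment in 1 Mb windows with at least 20 bins (upper panel, line and points, band of ± 1 SD over the bins of the window) and stretches in the associated state (lower panel, bars), against the distance from the middle of the central stretch without bins in Mb. Both lines are above 0 in nearly every window and high at the end of the long arm. VCaP lies above LNCaP at the tip of the short arm and in the last windows drawn on that arm. The 8 short-arm bins from 35 Mb on are not in the upper panel, and averaged 0.68 in LNCaP and 0.50 in VCaP.

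Along the chromosome, windows of 1 Mb had means from 0.05 to 0.96 in LNCaP and from -0.23 to 1.20 in VCaP. Of the 78 windows with at least 20 bins, 0 were below 0 in LNCaP and 1 was in VCaP. In 43 windows every bin was associated in both lines. VCaP was higher in 27 of 35 short-arm windows and in 21 of 43 long-arm windows. Relative to the shift of 0.13 between the genome medians these counts were 21 and 11. The window from 88 to 89 Mb was the highest in both lines, and averaged 0.96 (SD over 25 bins 0.24) in LNCaP and 1.20 (0.46) in VCaP. The lowest LNCaP window, from 69 to 70 Mb, averaged 0.05 (SD 0.22) in LNCaP and 0.19 (0.32) in VCaP. The lowest VCaP window, from 53 to 54 Mb, had means of 0.06 (SD 0.20) in LNCaP and -0.23 (0.36) in VCaP, and it was in the 77th place of 78 in LNCaP.

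Both chromosome ends were associated without a break in both lines. On the short arm the first bin with a value starts at 80001, and the associated state ran from there to 11840000 in LNCaP and to the same bin in VCaP. This stretch of 294 bins, 11.76 Mb, averaged 0.57 in LNCaP (noise SD of the mean 0.01) and 0.81 in VCaP (0.02). As background, the tip of the short arm is one of the most gene-dense parts of the genome. It carries the alpha-globin genes HBZ, HBA2 and HBA1, which encode the alpha-type chains of haemoglobin, and further in TSC2, a growth-restraining partner of TSC1, PKD1, mutated in polycystic kidney disease, and CREBBP, a histone acetyltransferase. RBFOX1, a very long neuronal splicing factor gene, lies beyond them on the same arm. In the first 5 Mb of bins LNCaP had a mean of 0.37 and VCaP one of 0.78, and VCaP exceeded LNCaP by over 0.5 in 42 of the 125 bins, 33.6% against 21.3% of all bins. In the next window, from 5 to 10 Mb, LNCaP stood at 0.75 (SD 0.25) and VCaP at 0.84 (SD 0.29). On the deposited scale LNCaP was thus further below VCaP at the tip than just behind it, though its tip mean was over its genome median of 0.06. From 5 to 10 Mb the mean difference of 0.08 was smaller than the shift of 0.13 between the genome medians.

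On the long arm the last associated stretch ran from 81160001 to 90280000 in LNCaP and from 81120001 in VCaP. Its 228 shared bins had means of 0.70 in LNCaP and 0.79 in VCaP, with noise SDs of 0.02 and 0.03. The last 5 Mb of bins were higher than the first 5 Mb of the chromosome, with 0.85 in LNCaP and 0.91 in VCaP, and all 125 bins were associated in both lines. As background, this end is also gene-dense and holds FANCA, a DNA repair gene, MC1R, the melanocortin receptor of pigment cells, and the FOXF1, FOXC2 and FOXL1 group of developmental transcription factors.

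In LNCaP the 3 longest associated runs of the genome, which are also its only runs of at least 9 Mb, lay on chromosome 16. In VCaP 3 of the 6 runs of at least 9 Mb did. The stretches associated in both lines that reach 9 Mb numbered 3, at both ends and in the middle of the long arm. Together they span 33.5 Mb, 42.4% of the members and 51.4% of the bins associated in both lines. LNCaP had 21 domains on the chromosome with a median length of 1920 kb, and VCaP had 29 with a median of 1000 kb, against genome medians of 720 kb and 560 kb over 965 and 1267 domains. In both lines the break from 34040001 to 34160000 is not a change of state. It is a 120 kb entry that is labelled associated in both lines but is not a member. Interruptions were short, with a median of 320 kb in LNCaP and 240 kb in VCaP, and the longest was 0.92 Mb in LNCaP and 2.40 Mb in VCaP.

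The longest LNCaP domain spans 378 bins, 15.12 Mb, from 54080001 up to the bin that starts at 69200001. All 378 bins were associated in LNCaP and 369 (97.6%) in VCaP. The means over the region were 0.52 (SD over bins 0.27) in LNCaP and 0.51 (SD 0.26) in VCaP, a difference of -0.0024. After quantile normalization this difference was -0.20. On the remaining 720 bins of the long arm the means were 0.46 in both lines, and associated shares were 88.9% in LNCaP and 73.8% in VCaP. The LNCaP share was fixed by the choice of the region as an unbroken LNCaP run, so nothing is read from it. VCaP left the associated state in 3 short stretches of it, all in the left part: 2 bins at the border, 4 bins from 55560001 to 55720000 where LNCaP averaged 0.31 and VCaP -0.12, as well as 3 bins from 56480001 to 56600000 with means of 0.07 and -0.10. From 56600001 on, VCaP was associated without a break to 69240000, 1 bin past the LNCaP border.

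As background, this region is known to hold genes of very different kinds. From the centromere outward come IRX3 and IRX5, homeobox transcription factors of patterning, the metallothionein cluster with MT2A, whose proteins bind zinc and copper, the chemokine genes CCL22 and CX3CL1, the cadherin genes CDH8, CDH11 and CDH5, which encode neuronal, mesenchymal and endothelial adhesion proteins, then CTCF, the main insulator protein of mammals, and CDH1, which encodes the epithelial adhesion protein E-cadherin. The available RefSeq table is of GRCh38.p14 and was used only for gene order. It lists 63 protein-coding genes between IRX3 and CDH8, 0 between CDH8 and CDH11, 0 between CDH11 and CDH5, and 76 between CDH5 and CDH1. By this order the middle of the region is poor in protein-coding genes and its flanks hold many. No gene was assigned to a bin, since positions of different builds were not mixed.

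One gene start from the left, the middle and the right of the region is shown as an example of its sequences. Their places in the region rest on general knowledge of the chromosome, and no start was placed in hg19. The genes were picked by hand with no rule, and their order stands for no trend along the region. Given are the 250 bases before the start (for CDH8 the most upstream of 2 listed starts), on the gene's own strand, from RefSeq on GRCh38.p14, with every CG dinucleotide in capitals. CCL22 and CTCF are on the plus strand and CDH8 on the minus strand.
CCL22: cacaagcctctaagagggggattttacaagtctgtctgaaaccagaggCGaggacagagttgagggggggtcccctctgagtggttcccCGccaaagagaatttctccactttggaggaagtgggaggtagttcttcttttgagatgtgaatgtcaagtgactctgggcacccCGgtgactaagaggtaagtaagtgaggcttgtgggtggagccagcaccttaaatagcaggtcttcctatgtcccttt
CDH8: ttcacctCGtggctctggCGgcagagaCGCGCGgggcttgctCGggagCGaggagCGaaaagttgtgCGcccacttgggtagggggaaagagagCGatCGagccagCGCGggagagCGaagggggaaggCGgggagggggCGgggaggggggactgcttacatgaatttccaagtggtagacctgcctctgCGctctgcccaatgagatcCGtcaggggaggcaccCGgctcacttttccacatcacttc
CTCF: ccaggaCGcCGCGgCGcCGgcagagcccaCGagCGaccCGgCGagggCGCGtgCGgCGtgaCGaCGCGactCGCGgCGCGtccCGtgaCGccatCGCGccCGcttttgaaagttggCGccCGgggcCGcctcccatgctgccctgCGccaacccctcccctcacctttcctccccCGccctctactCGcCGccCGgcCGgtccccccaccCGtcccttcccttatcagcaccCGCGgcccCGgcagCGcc
The CCL22 stretch has 3 CG dinucleotides and a GC content of 51.2%, that of CDH8 has 19 and 64.0%, and that of CTCF has 39 and 76.8%. Other starts of the region differ from their neighbours here, such as MT2A on the left with 32 and CES4A, a carboxylesterase gene, on the right with 4. At least 1 CG was in 93.9% of the 35116 listed promoters of the same length, whose median was 11, and the 1293 of chromosome 16 had a median of 16. These letters are given as context, and no enrichment value belongs to a single promoter at 40 kb resolution.

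Cut into 3 equal parts of 126 bins, the region showed opposite profiles in the lines. In the left part, to 59120000, the mean was 0.40 (SD 0.17) in LNCaP and 0.52 (0.32) in VCaP. In the middle part, to 64160000, LNCaP was higher with 0.68 (SD 0.24) against 0.41 (0.16). In the right part the means were 0.47 (SD 0.30) and 0.61 (0.23). A difference beyond 0.5 occurred in 7 bins (5.56%) towards VCaP and 2 (1.59%) towards LNCaP in the left part, in 0 and 21 (16.7%) in the middle, and in 10 (7.94%) and 0 in the right part. Over all chromosomes these shares were 21.3% towards VCaP and 9.33% towards LNCaP. The near-zero difference over the whole region is the mean of parts with opposite signs. With a shift of 0.13 between the genome medians, the left and right parts lie near 0 and the middle part alone stays apart.

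In windows of 1 Mb counted from the left border, LNCaP was higher in 7 successive windows, from 59080001 to 66080000. The contrast was widest from 62080001 to 63080000, with 0.93 (SD 0.12) in LNCaP and 0.50 (0.13) in VCaP. VCaP was higher in the 5 windows before and in the 4 after that run of 7, and relative to the genome shift in 2 and 4 of them. From 67080001 to 68080000 LNCaP stood at 0.19 (SD 0.09) while VCaP stood at 0.54 (0.25), and every bin there was still labelled associated in both lines. By general knowledge of the chromosome, the CDH8 to CDH11 desert lies within the windows where LNCaP was higher, and CTCF lies in the gene-dense right part.

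**Figure D3:**
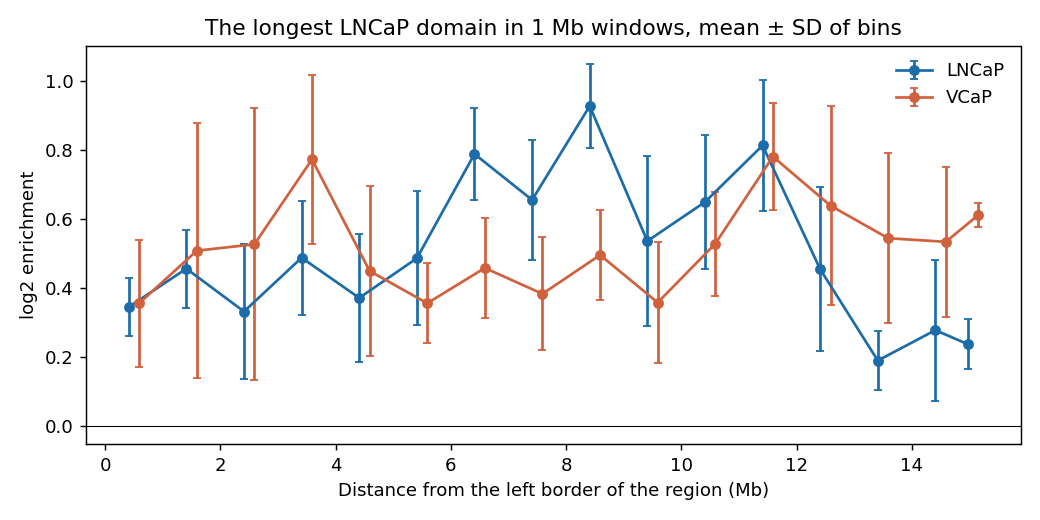
Mean log2 enrichment in 1 Mb windows of the longest LNCaP domain (points, bars of ± 1 SD over the bins of the window) against the distance from its left border in Mb, for LNCaP and VCaP. LNCaP is above VCaP in the 7 middle windows and below it on both sides, with the last point standing for 3 bins only.

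Steps at the borders of this domain are changes between means over 8 bins, which do not show how sharp a change is. The borders lie where the LNCaP label changes, so a rise and a drop in LNCaP were fixed by this choice. Nothing is read from the LNCaP steps. Over 8 bins on either side of the left border, the mean changed from -0.07 (SD 0.15) to 0.39 (0.08) in LNCaP and from -0.37 (0.25) to 0.41 (0.25) in VCaP. At the right border it changed from 0.24 (SD 0.08) to -0.09 (0.10) in LNCaP and from 0.52 (0.08) to 0.06 (0.14) in VCaP. The steps were 0.45 in LNCaP and 0.78 in VCaP at the left border, and -0.33 and -0.46 at the right border. With the averaging of the deposited values undone, the 4 steps were 0.43 and 0.78 at the left border and -0.35 and -0.52 at the right border, about as large as on the deposited scale.

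**Figure D4:**
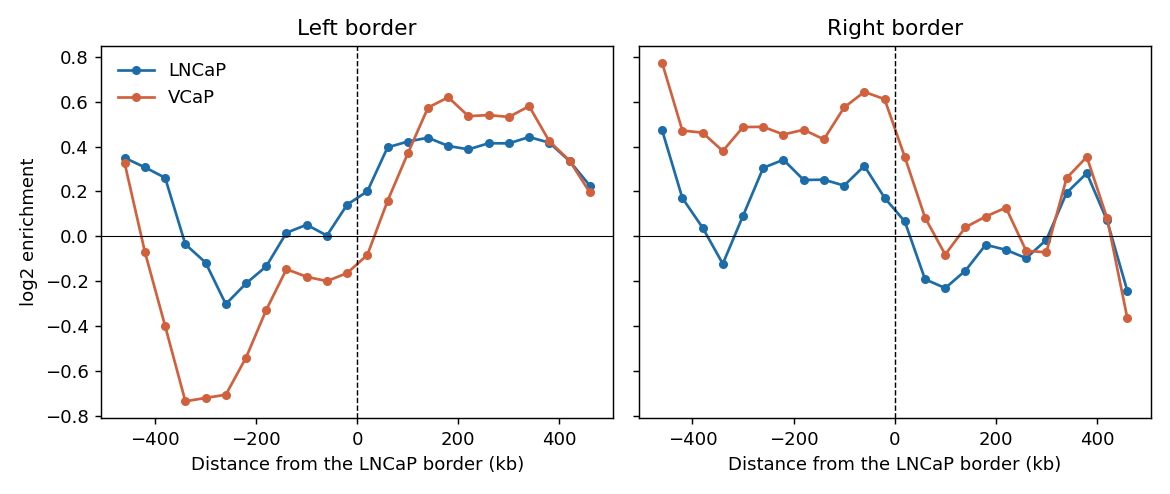
Log2 enrichment of single 40 kb bins against the distance from the left and right borders of the longest LNCaP domain in kb, which lie at the dashed lines. Across the left border both lines climb gradually, VCaP from -0.74 at -340 kb to 0.57 at 140 kb and LNCaP from -0.30 at -260 kb to 0.40 at 60 kb. Across the right border both drop within a few bins.

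State borders were compared between the lines over the whole chromosome. LNCaP had 36 borders and VCaP 54, or 1.82 and 2.73 per 100 bins, against 2.60 and 3.29 on the other chromosomes. A border of the same direction lay in the very same place in the other line for 6 of them, 16.7% of the LNCaP and 11.1% of the VCaP borders. Within 40 kb this held for 11, 30.6% and 20.4%. On the other chromosomes these shares were 18.7% and 14.7% within 40 kb. Whether the higher shares go beyond chance was not tested.

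The exceptions to the high state were few. Bins associated in neither line numbered 97 (4.91%, against 38.4% of all bins), those associated in LNCaP only 184 (9.31%, against 17.2%), and those in VCaP only 67 (3.39%, against 23.8%). Of the LNCaP-only bins 131 lay on the long arm, and of the VCaP-only bins 54 lay on the short arm. Stretches of at least 5 bins associated in neither line numbered 8, with 3 on the short arm and 5 on the long arm.

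The longest of the 8 starts at 53160001 and runs up to the left border of the long domain, and its 23 bins averaged 0.02 (noise SD 0.05) in LNCaP and -0.31 (0.09) in VCaP. The lowest VCaP bin of the chromosome, -0.84, is in it. The stretch from 52440001 to 52640000 was alike, with -0.04 in LNCaP and -0.33 in VCaP. These neighbours are known as the surroundings of TOX3, a chromatin protein gene linked to breast cancer risk, and FTO, an RNA demethylase gene. Directly to the right of the domain, from 69240001 to 69840000, the means were -0.08 (noise SD 0.06) in LNCaP and -0.02 (0.11) in VCaP. The other 5 had means from -0.13 to 0.05 in LNCaP and from -0.24 to 0.10 in VCaP. In 6 of the 8 VCaP was the lower line by mean, and the lowest mean of LNCaP was -0.13. Only in the stretch of 23 bins was the difference, -0.32 (noise SD 0.07), over 2 times its noise. As a median of undone values, the difference at 14560001 changed sign from -0.05 to 0.0086.

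Stretches of at least 5 bins associated in LNCaP only numbered 15. The widest contrast was from 72360001 to 72680000, with 0.29 (noise SD 0.09) in LNCaP and -0.40 (0.14) in VCaP. The excess of LNCaP was over 0.5 in 7 of its 8 bins. The next was from 77280001 to 77560000, with 0.53 and 0.03. From 51760001 to 52440000 the means were 0.38 and 0.09, and 2 short-arm stretches, from 19400001 to 19640000 and from 20680001 to 20920000, differed by -0.27 each with a noise SD of 0.14. The last 2 differences are within 2 times their noise.

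Stretches of at least 5 bins associated in VCaP only numbered 6, of which 5 were on the short arm. The widest contrast was from 32680001 to 33080000, with -0.22 (noise SD 0.08) in LNCaP and 1.15 (0.13) in VCaP, and VCaP was higher by over 0.5 in 9 of its 10 bins. The next 2 were from 18400001 to 18640000, with -0.19 and 0.78, and from 29360001 to 29680000, with -0.11 and 0.75. From 32080001 to 32440000 the means were 0.05 and 0.74, and on the long arm from 70120001 to 70440000 they were 0.00007 and 0.47.

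**Figure D5:**
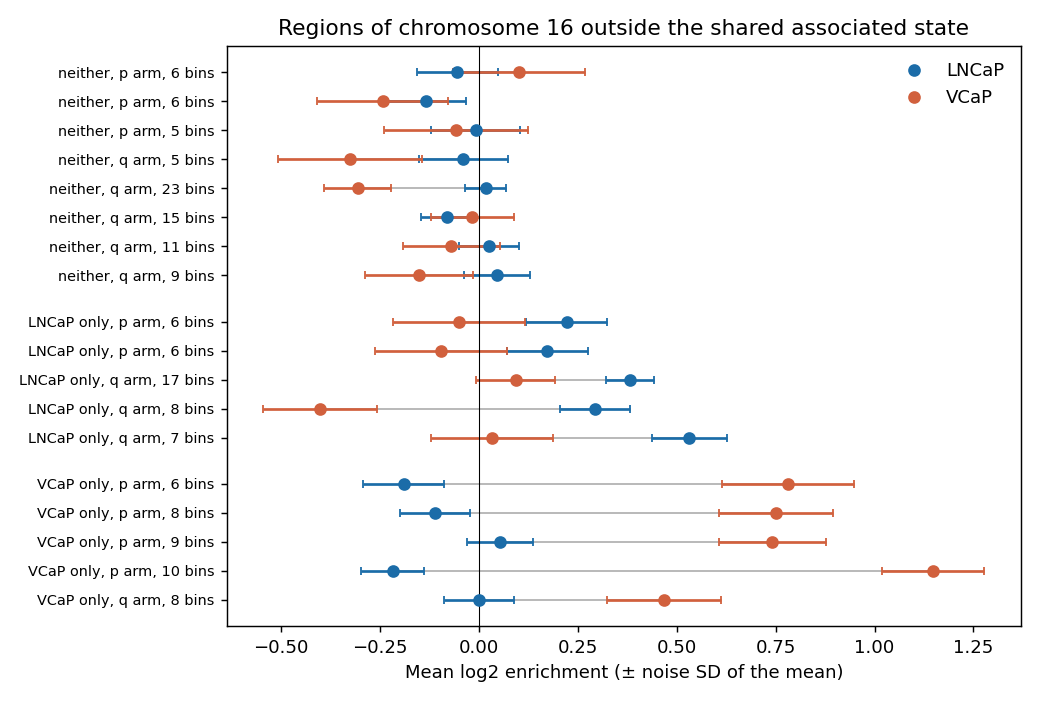
Mean log2 enrichment in LNCaP and VCaP (points, bars of ± 1 noise SD of the mean) for the 8 stretches associated in neither line and the 5 stretches with the largest difference for each line, in chromosome order within each set. In the VCaP-only set the lines are far apart, while the bars of the lines overlap in every neither-line stretch except the one of 23 bins.

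The deepest LNCaP trough of the chromosome was chosen after its values were seen. It covers 4 bins from 28720001 to 28880000, where LNCaP had -0.21, -1.33, -1.37 and -0.93 and VCaP had 0.71, 0.96, 0.80 and 0.77. With the averaging undone, the LNCaP entries of these bins were -1.06, -2.96, -0.09 and 0.25, so the trough rests on 2 of them. The VCaP-only stretches at 18400001 and 32680001 also rest in part on single entries. Their lowest undone LNCaP values were -2.66 and -2.29, and their highest undone VCaP values 3.17 and 3.00. As medians of undone values the differences went from 1.77 to 1.19 in the trough, from 1.37 to 0.97 at 32680001, and from 0.97 to 0.54 at 18400001, each still higher in VCaP. At 18400001 the undone medians of the lines themselves were close, 0.10 in LNCaP and 0.18 in VCaP. Of the 5 highest undone VCaP entries of the chromosome, 4 were whole-number ratios of ChIP to input within 0.001, namely 12, 9, 9 and 8. The highest lies at 88400001, in the highest 1 Mb window of both lines, whose median of undone values was 0.99 in LNCaP and 1.25 in VCaP. The number of reads in those bins was not analysed here.

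The stretch between the arms is represented in the deposited tables by 3 entries from 35320001 to 46360000, which are not members. LNCaP was labelled associated in all 3 and VCaP in none. Their deposited values were 0.67, 0.32 and 0 in LNCaP and 0.07, 0.12 and 0 in VCaP. The value of 0 in the third of them is the mean of all 3, which were therefore taken as empty. Their labels differ between the lines although this mean was 0 in both. Within a few bins of it LNCaP was high on both arms while VCaP was near 0. The deposited LNCaP maximum of the chromosome, 1.55, was in the third bin of the long arm, at 46440001 to 46480000, where VCaP had -0.04. The bins before it on this arm average in the empty entries. With the averaging undone, the first 3 bins had 1.53, 1.60 and 1.53 in LNCaP. The highest undone LNCaP value of the chromosome was 1.74, at 89040001. On the short-arm side the last bin had deposited values of 1.05 in LNCaP and 0.08 in VCaP. Farther from the stretch between the arms, the order turned on the short arm. Its last 5 Mb of bins had means of 0.33 in LNCaP and 0.82 in VCaP, with an r of -0.19 over 125 bins. The first 5 Mb of the long arm had 0.45 and 0.48 with an r of 0.51.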

How the data were processed

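Lamin B1 occupancy was measured by ChIP-seq in LNCaP and VCaP, with 1 ChIP and 1 input library per line, grouped by the titles in the labels. The deposited log2 values are enrichment of ChIP over input per 40 kb bin, as the deposited table names and the labels say. Build hg19 and STAR are listed per the submitters' processing notes. Scaling, read filters and settings are not given in the sources used here. The deposited state tables give AD or iAD, and AD had the higher level and was taken as associated.

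That a deposited value averages the entry itself and the 2 preceding entries was inferred from the values and is stated in no source used here. On chromosome 16 the averaging was undone from the 3 entries between the arms, taken as 0 because their mean is 0. The wide entry at 34040001, not used for this, then came out at 0 in both lines. Noise is the median absolute change between bins 3 apart, times 1.4826, over the square root of 2. A mean of several bins counted 1 separate value per 3 bins. Named were both lines' longest domains, stretches of at least 5 bins in neither line, the 5 widest contrasts per line, and the highest and lowest 1 Mb windows.

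The members and lists were chosen with earlier results of these data known. The planned gene lists, 98 of whose 99 symbols were found on the chromosome, got no values, since builds were not mixed. Alternatives covered the state, zero point, normalization, averaging, edges and windows. The undoing of the average, the finding of runs and the noise estimate on independent values were tested on simulated data. The noise estimate on averaged values 3 bins apart and the noise SD of a mean were not. Work was done in Python 3.11.15 with scipy 1.17.1, pandas 2.3.3, matplotlib 3.10.9 and numpy 2.4.6.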

Additional observations from a re-analysis of the deposited data

Results flagged for a closer look

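In 5 of the 19 named regions of chromosome 16 the lines lay on opposite sides of 0 by mean log2 enrichment, each mean being farther from 0 than its noise SD. With 1 library pair per line this difference was not tested, and the noise SD covers only the spread between bins. The 5 regions were picked for a large difference or, at 28720001, for a low LNCaP mean. VCaP was above 0 and LNCaP below it in 4 of them, all on the short arm. The VCaP minus LNCaP difference was 0.97 from 18400001 to 18640000, 1.77 from 28720001 to 28880000, 0.86 from 29360001 to 29680000 and 1.37 from 32680001 to 33080000. LNCaP was above 0 and VCaP below it in the long-arm region from 72360001 to 72680000, with a difference of -0.69. Of all 87 stretches of equal state on the chromosome, counted with the break at 34040001, 7 met this rule, the other 2 being under 5 bins long. With the averaging undone, the medians of the region at 18400001 were 0.10 in LNCaP and 0.18 in VCaP, on the same side of 0. As medians of undone values, the 4 short-arm differences fell to 0.54, 1.19, 0.65 and 0.97, in chromosome order. The long-arm difference was then -0.70. The region at 28720001 was chosen after its values were seen.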

How the results depend on the processing

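For 51 results, 162 values under other settings were computed. Of those that answer a comparison, 91 stayed within the limits used (the 95% Wilson interval of a share over bins, the noise of a bin for a level, 1.5 times for a count, 0.1 for r) and 52 moved. The places of chromosome 16 among the chromosomes, the lengths of the longest domains, the medians of the arms and r were among those that stayed. These limits are wide. With enrichment over 0 the longest LNCaP domain went from 15.12 to 11.76 Mb, the length of the stretch at the short-arm tip. The 15.12 Mb domain was then broken, with 99.2% of its bins over 0. Centring moved the long-arm VCaP median from 0.48 to 0.29. The long-arm difference went from 0.006 to -0.13 when centred and to -0.18 when quantile normalized, a change of sign.

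Shares moved with how the associated state was defined. With enrichment over 0 they were 95.0% in LNCaP and 92.0% in VCaP for the chromosome, 94.0% and 94.8% for the short arm, and 95.8% and 89.7% for the long arm, and both lines were associated in 89.2%. With a running median of 5 bins over 0 they were 96.0% and 93.9%, 94.8% and 96.2%, and 97.0% and 92.1%, with 91.2% in both. With enrichment over 0.5 they were 43.2% and 57.4%, 42.1% and 70.5%, and 44.1% and 47.0%, with 32.1% in both. With the highest 40% of bins they were 86.1% and 76.9%, 86.2% and 84.2%, and 86.0% and 71.1%, with 71.3% in both. All entries weighted by length gave 75.3% for the chromosome in VCaP. This takes in the wide entries between the arms, which were taken as empty and are labelled not associated in VCaP. By arm the weighted VCaP shares were 90.6% on the short arm and 82.0% on the long arm. Enrichment over 0 gave 42 LNCaP and 51 VCaP domains. Within the longest LNCaP domain, the highest 40% of bins gave shares of 91.0% for LNCaP and 80.7% for VCaP, and the running median gave 99.7% for VCaP.

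Quantile normalization moved the short-arm median difference to 0.011 and that of the region to -0.20. Bins over 0.5 and under -0.5 on the short arm numbered 82 and 59 when centred, 64 and 74 when quantile normalized, and 31 and 0 at a threshold of 1, and 51 were under -0.5 with the average undone. On the long arm they numbered 16 and 105, 8 and 145, and 1 and 5, and 98 and 91 with the average undone. Windows of 1 Mb with VCaP higher, an alternative chosen after seeing the data, numbered 11 on the long arm when centred. The cause was not tested beyond what each alternative changes by its construction.

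With medians of undone values, chosen after seeing the data, 14 of the named regions stayed, 4 moved and 1 changed sign, that from 14560001 to 14760000, from -0.05 to 0.0086. The 4 that moved were the short-arm regions at 18400001, 28720001, 29360001 and 32680001, each to a smaller difference. Gene-list alternatives could not be run across builds. No paired analysis was possible because there is only 1 library of a kind, and for the same reason no replicate could be left out. Single regions are limited by the noise between bins, the zero point of the lines, single entries inside the averages, the unknown depth and the lack of replicates.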
